A study of Drosophila melanogaster with 42 samples.

Results

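Ebp, EbpII and EbpIII are the Drosophila melanogaster genes named for the ejaculatory bulb, the muscular sac at the end of the male reproductive tract. They were selected by gene name from the deposited count table, and all 3 were found among its 15038 genes. All 3 also passed the filter on low counts that left 13672 genes for testing. Ebp and EbpII were adult RNAs, while EbpIII was already abundant before the adult stages.

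The bulb receives the secretions of the accessory glands and the ejaculatory duct and adds its own. It makes the male pheromone cis-vaccenyl acetate and proteins of the mating plug, the gel that forms in the female tract during mating. Ebp encodes the major protein of the posterior part of that plug, and EbpII encodes another secreted protein of the bulb. EbpIII encodes a small secreted protein of another kind, a member of the insect chemosensory protein family, whose members bind small hydrophobic ligands. EbpIII is also known from tissues outside the bulb and as a gene induced by viral infection in flies.

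The study followed control animals and mutants of ERR, the fly estrogen-related receptor, over a course of 7 stages, which the labels call WPP, then P1 to P4, then A1 and A6. WPP is the white prepupa, and P and A are read here as pupal and adult, which the labels do not spell out. Each genotype had 3 libraries at each stage, 42 in all, from poly(A) RNA of whole flies. Animals of both genotypes had been heat-treated on days 4 and 5 after egg laying. The genotypes differed in whether they carried hsFLP, a recombinase transgene under a heat shock promoter, so the loss of ERR and the transgene cannot be told apart in any genotype comparison.

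Library totals ran from 4308848 to 7737140 counts. Levels are CPM, counts scaled to a common library total after TMM normalization, as mean ± SD over the 3 libraries of a group. A gene is called where its adjusted p in edgeR's quasi-likelihood test, with Benjamini-Hochberg adjustment over all genes tested, lies under 0.05. Whether the 3 libraries of a group stem from separate cultures or animals is not stated in the labels, and the p-values cover only the spread among them, which could be technical. ERR was lower in the mutant at A6, at 5.46 ± 0.821 against 35.6 ± 1.36 CPM (edgeR adjusted p = 2.8e-12), and it was also called lower at P4 and A1 but not from WPP to P3. At WPP, P1, P2 and P3 its log2 differences were -0.59, -0.60, -0.43 and -0.79. All mutant libraries lay below all control libraries at each of these stages. The labels give no sex, but testis RNAs were present in all groups of adults, with a summed level of 15 testis genes between 3919 and 4959 CPM. The yolk protein genes Yp1 and Yp2, which are highly expressed in adult females, did not exceed 2.42 CPM in any of the 12 adult libraries, and Yp3 ranged from 3.67 to 10.2 CPM. Mutant P1 replicate 1 stood apart from its group, with chi-squares per gene of 58.3 and 67.5 against the other mutant P1 libraries, which gave 7.15 between them. Its summed testis RNA was 28.2 CPM beside 1310.2 and 1429 CPM, and its summed dosage compensation RNA was 38.1 CPM beside 286 and 326 CPM.

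All 3 genes lie on chromosome arm 2R of the dm6 genome. Ebp (FBgn0004181) spans 25175126 to 25176715 on the minus strand, 1590 bp with 2 annotated transcripts. EbpII (FBgn0011694) spans 25173568 to 25174230 on the minus strand, 663 bp with 2 transcripts, and ends 895 bp from Ebp. EbpIII (FBgn0011695) lies apart from this pair, at 24026172 to 24027518 on the plus strand, 1347 bp with 3 transcripts. None of them overlaps another gene of the count table.

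Ebp was nearly absent before the adult stages. Over the 30 libraries from WPP to P4 it gave 55 counts in all, 12 of these libraries had 0, and no library exceeded 2.51 CPM. The P4 libraries held 20 counts in controls, of which 14 were in replicate 1, and 10 counts in mutants. Against the 2 counts of control P3 this was a called rise (edgeR adjusted p = 0.0193), where 17.3% of all genes tested were called higher, but it was not called without control P4 replicate 1 (adjusted p = 0.261) or control P3 replicate 2 (0.0747). The same step in mutants, from 1 to 10 counts, was not called (edgeR adjusted p = 0.0811), although it was with DESeq2 (0.0326) and without mutant P4 replicate 3 (0.0391).

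EbpII had no counts at all in those 30 libraries. A total of 3 counts over them would be 0.0169 CPM, the limit that a count of 0 allows, which covers counting error only. Transcripts of EbpII were thus not detectable before A1 at this depth.

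Both genes were abundant in every library of the adult stage A1. Ebp stood at 1904, 1756 and 2718 CPM in the control A1 libraries and at 1415, 1892 and 1959 CPM in the mutant A1 libraries. From P4 to A1, Ebp rose by 10.68 ± 0.444 (SE) on the log2 scale in controls and by 11.12 ± 0.472 in mutants (edgeR adjusted p = 1.3e-18 and 1.9e-18), in comparisons where 16.2% and 18.1% of genes were called higher. EbpII reached 466, 443 and 723 CPM in the control A1 libraries and 365, 535 and 561 CPM in the mutant A1 libraries. With P4 set at 3 counts over the group, the pooled A1 level of EbpII was 2815-fold higher in controls and 2130-fold higher in mutants. The spread among the A1 libraries does not enter these folds. No library of A1 came near any library of P4 for either gene.

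**Figure D1:**
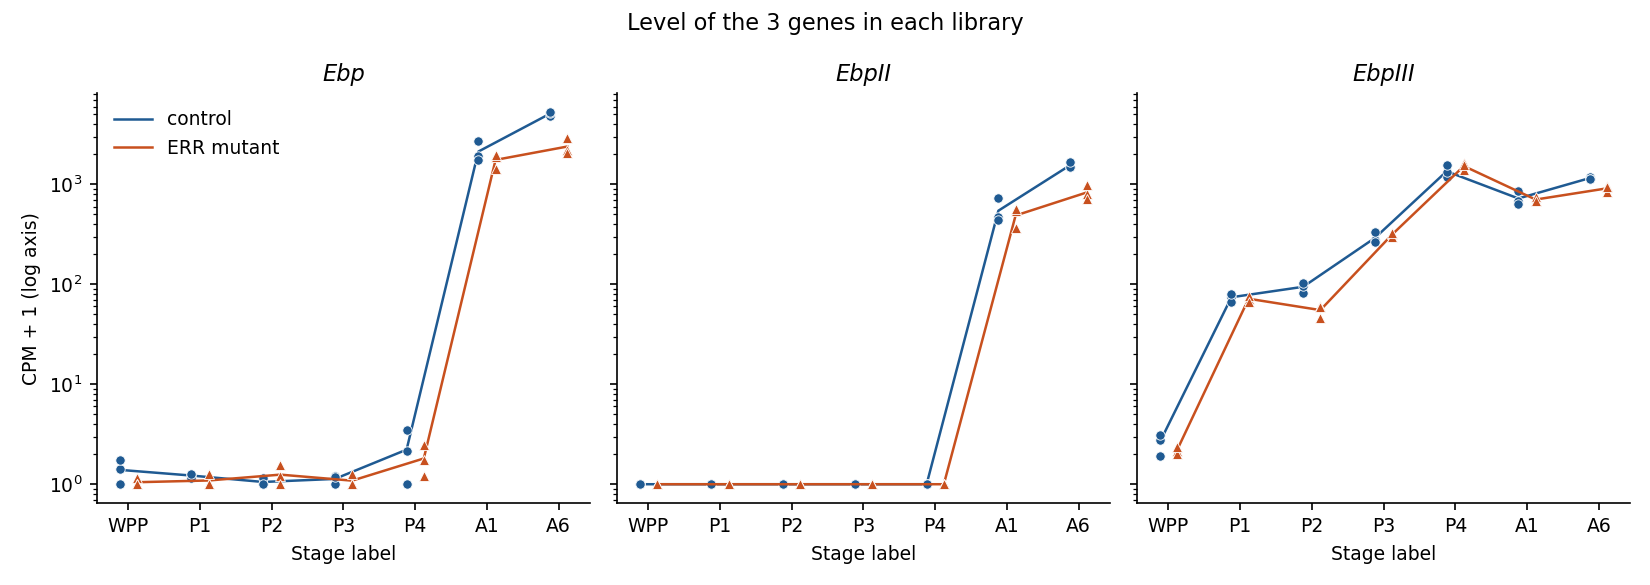
Level of Ebp, EbpII and EbpIII in each of the 42 libraries, as CPM + 1 on a log axis, by stage label. Points are libraries (circles control, triangles ERR mutant) and lines join the group means. Ebp and EbpII stay at or near 0 until P4 and are high at A1 and A6, while EbpIII climbs from WPP to P4.

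EbpIII followed another course. Its level was 1.62 ± 0.628 CPM in control WPP and 1.17 ± 0.171 CPM in mutant WPP, and 73.2 ± 6.58 and 70.7 ± 4.90 CPM at P1. It then climbed to 289.9 ± 38.2 CPM (control) and 314 ± 15.1 CPM (mutant) at P3, and to its highest group means at P4, 1349.7 ± 192 CPM in the control and 1523 ± 121 CPM in the mutant group. In controls the called steps were a rise of 5.49 ± 0.187 on the log2 scale from WPP to P1, 0.35 ± 0.131 from P1 to P2, 1.63 ± 0.133 from P2 to P3 and 2.22 ± 0.134 from P3 to P4. The shares of genes called higher in these 4 control steps were 25.6%, 21%, 15.6% and 17.3%. In mutants EbpIII rose by 5.89 ± 0.198 from WPP to P1, by 2.54 ± 0.138 from P2 to P3 and by 2.28 ± 0.134 from P3 to P4, where 22.5%, 19.7% and 18.2% of genes were called higher.

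EbpIII was lower at A1 than at P4 in both genotypes, the reverse of Ebp and EbpII. The control libraries went from 1172, 1324 and 1553 CPM at P4 to 683, 631 and 850.4 CPM at A1, a fall of 1.87-fold (log2 -0.90 ± 0.129, edgeR adjusted p = 6.1e-07). The mutant libraries went from 1392, 1631 and 1547 CPM to 678, 749 and 683 CPM, a fall of 2.16-fold (log2 -1.11 ± 0.129, adjusted p = 1.1e-08). The P4 and A1 libraries did not overlap in either genotype, and 22.7% and 28.8% of genes were called lower in these comparisons. Another scaling (DESeq2 size factors) moved the median of all genes in the mutant comparison by 0.14 on the log2 scale.

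From A1 to A6 the 3 genes rose together in controls. Ebp rose 2.40-fold (log2 1.26 ± 0.269, edgeR adjusted p = 5.0e-04), EbpII rose 2.86-fold (log2 1.51 ± 0.215, adjusted p = 2.6e-04) and EbpIII rose 1.60-fold (log2 0.68 ± 0.128, adjusted p = 1.0e-04). The control A1 and A6 libraries did not overlap for any of the 3 genes, and 9.65% of all genes tested were called higher.

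In mutants EbpII rose 1.71-fold from A1 to A6 (log2 0.77 ± 0.211, edgeR adjusted p = 0.0185) and EbpIII rose 1.30-fold (log2 0.38 ± 0.128, adjusted p = 0.0270), where 14.3% of genes were called higher. Ebp was not called, with a log2 difference of 0.44 ± 0.265 (edgeR adjusted p = 0.251). The mutant rise of EbpII was not called without mutant A1 replicate 1 (adjusted p = 0.0632) or mutant A6 replicate 3 (0.0707). That of EbpIII was not called with DESeq2 size factors (0.0568), nor without replicate 1 or 3 of either mutant adult group, where its adjusted p lay between 0.0729 and 0.0796.

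At A6 the mutant held less Ebp and EbpII RNA than the control. Ebp stood at 4831, 5183 and 5279.6 CPM in the control A6 libraries and at 2217, 2055 and 2894 CPM in the mutant A6 libraries. The groups did not overlap, and Ebp was 2.13-fold lower in the mutant (log2 -1.09 ± 0.268, edgeR adjusted p = 0.00561). Ebp ranked 6 among all genes by mean CPM in control A6 animals, where it took 0.573% of all counts, and 18 in mutant A6 animals, where it took 0.266%. In whole animals, fewer cells of a type and less RNA per cell cannot be told apart.

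EbpII stood at 1494, 1505 and 1661 CPM in the control A6 libraries and at 806, 709 and 981 CPM in the mutant A6 libraries. These groups did not overlap either, and EbpII was 1.87-fold lower in the mutant (log2 -0.90 ± 0.211, edgeR adjusted p = 0.0182). At A6, 5.28% of all genes tested were called lower and 6.14% higher, 722 against 840 genes, and with DESeq2 size factors the split was 913 lower against 653 higher. The Ebp call was lost without mutant A6 replicate 2 (adjusted p = 0.0509), its log2 value then being -0.997. The EbpII call was lost without control A6 replicate 2 (0.0505) or 3 (0.0610) and without mutant A6 replicate 1 (0.0711) or 2 (0.0886), with log2 values from -0.93 to -0.80.

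EbpIII was read at 1195, 1134 and 1143 CPM in the control A6 libraries and at 954, 834 and 949.7 CPM in the mutant A6 libraries. The groups did not overlap, but the log2 difference of -0.34 ± 0.128 was not called (edgeR adjusted p = 0.0812). It was called with DESeq2 size factors (log2 -0.40, adjusted p = 0.0363), with the factors implied by the deposited values (-0.37, 0.0481), with only the 6 A6 libraries (-0.35, 7.9e-04) and with DESeq2 (-0.40, 0.0128).

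**Figure D2:**
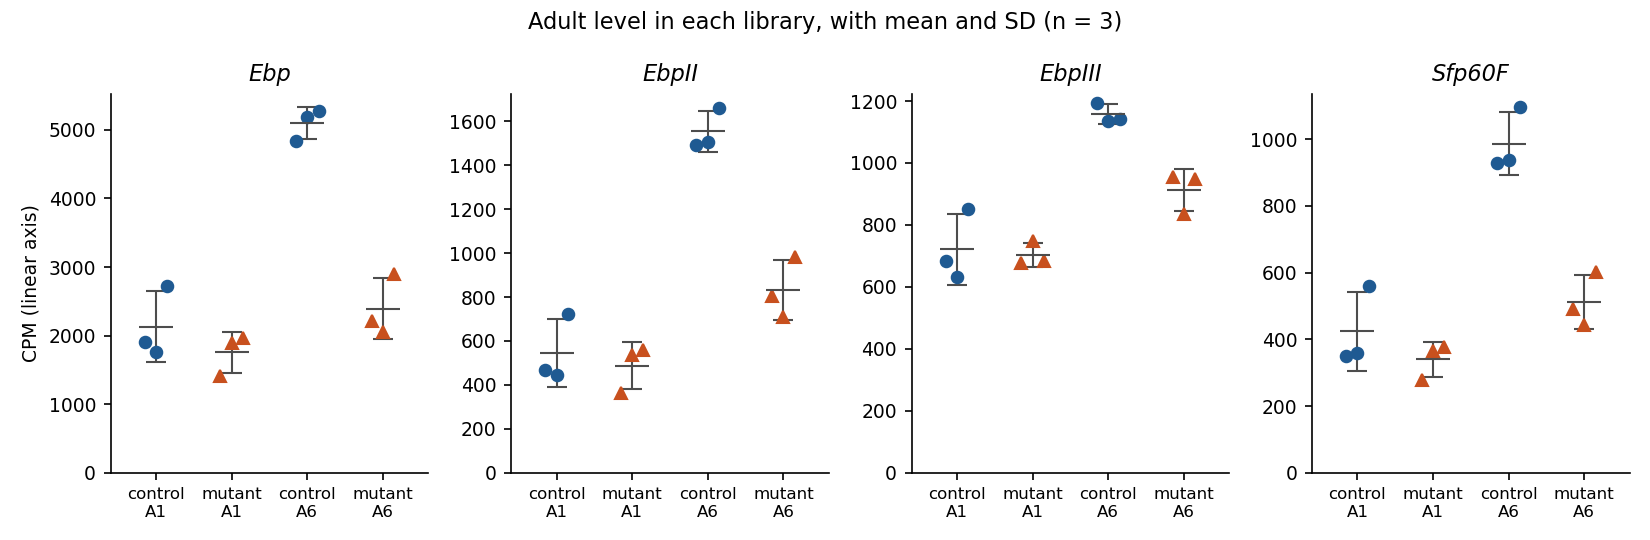
CPM of Ebp, EbpII, EbpIII and the neighbouring gene Sfp60F in each adult library on linear axes that start at 0, with group mean and SD (n = 3). For all 4 genes the control A6 libraries lie above the mutant A6 libraries, while the A1 groups overlap.

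At A1 none of the 3 genes was called between the genotypes, where 2.9% of all genes were. The log2 differences were -0.28 ± 0.265 for Ebp, -0.16 ± 0.211 for EbpII and -0.04 ± 0.128 for EbpIII (edgeR adjusted p = 0.794, 0.898 and 0.973), and the libraries of the genotypes overlapped for each gene. The mutant effect at A6 minus that at A1 was -0.82 ± 0.375 for Ebp, -0.74 ± 0.298 for EbpII and -0.31 ± 0.181 for EbpIII. None of these differences was called (edgeR adjusted p = 0.276, 0.251 and 0.441), so the A6 effect was not shown to differ from the A1 effect. Without control A1 replicate 3, which was the highest library of its group for all 3 genes, that of EbpII was called (adjusted p = 0.0478, log2 -1.01).

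**Figure D3:**
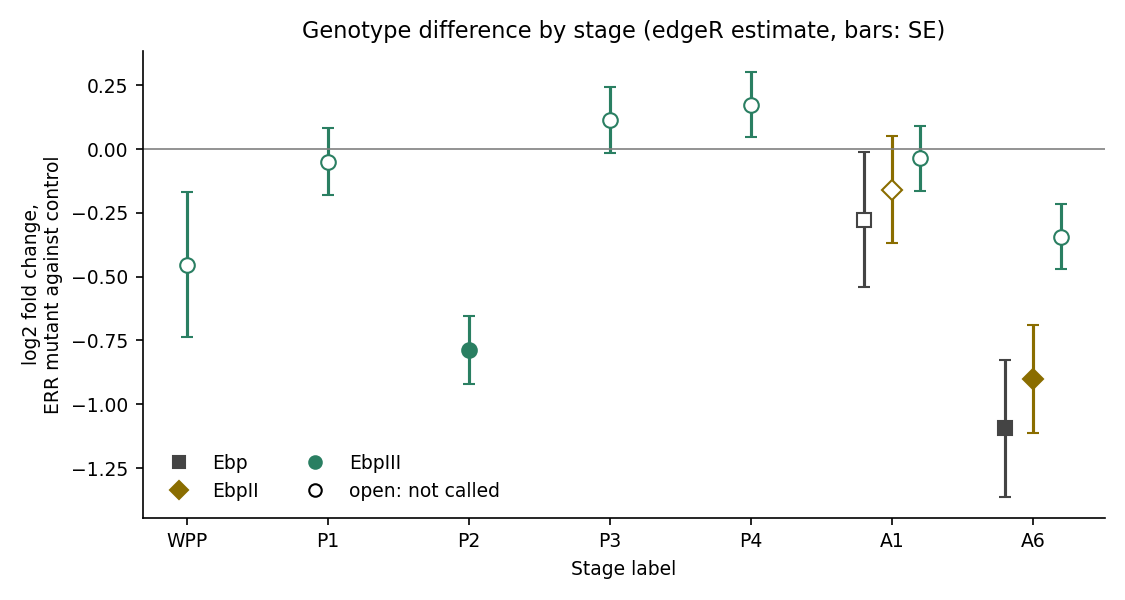
Log2 fold change of the ERR mutant against the control by stage, edgeR estimate with SE, for EbpIII at 7 stages and for Ebp and EbpII at A1 and A6, where their counts allow it. Filled points are called. EbpIII is called at P2 at -0.79, and Ebp and EbpII are called at A6 at -1.09 and -0.90.

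The ratios between the genes did not overlap between the genotypes at A6. Within control A6 libraries the log2 ratio of Ebp to EbpII counts was 1.71 ± 0.0609, and within mutant A6 libraries it was 1.52 ± 0.0523. The log2 ratio of Ebp to EbpIII was 2.14 ± 0.107 in control and 1.37 ± 0.206 in mutant A6 libraries, and that of EbpII to EbpIII was 0.42 ± 0.109 and -0.14 ± 0.165. In every mutant A6 library Ebp was thus lower relative to EbpII, and both were lower relative to EbpIII, than in any control A6 library.

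A two-sided exact permutation test of 3 against 3 libraries gave p = 0.1 for each of the 3 ratios at A6, the smallest p this design allows. At A1 the same ratios overlapped between the genotypes, with differences of -0.12, -0.24 and -0.12 (exact permutation p = 0.2, 0.3 and 0.7). These ratios do not depend on how the libraries were scaled.

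**Figure D4:**
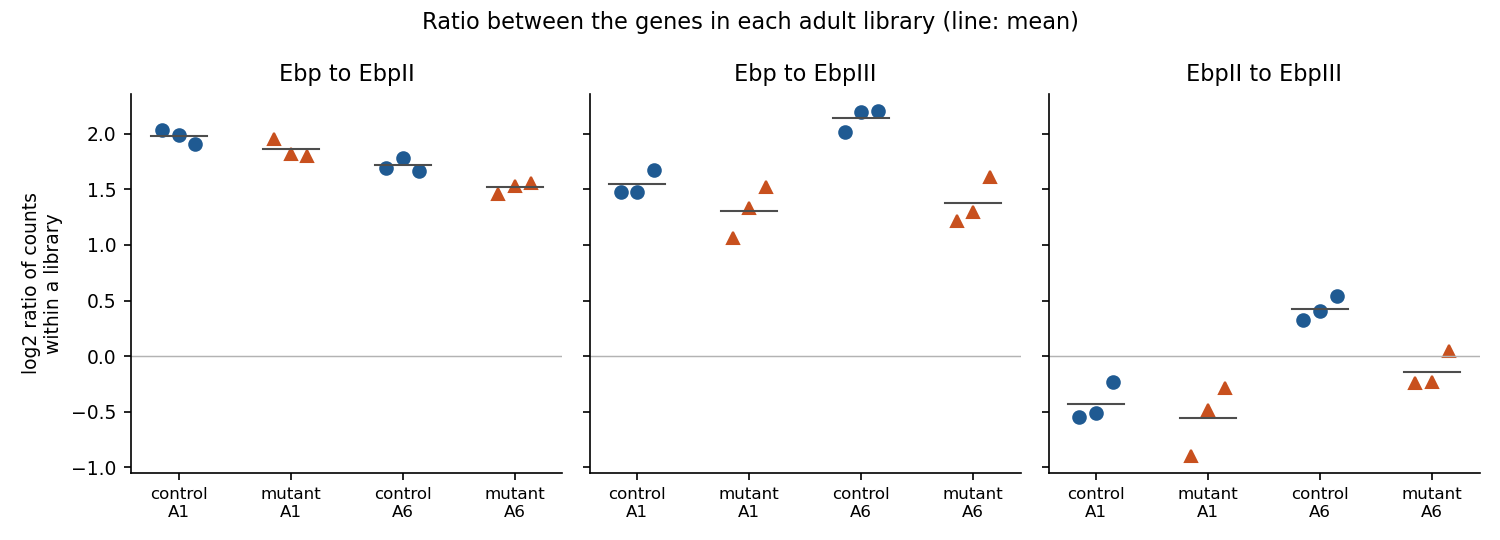
Log2 ratio of counts between pairs of the 3 genes within each adult library, with group means as lines. At A6 the mutant libraries lie below the control libraries in each panel, and at A1 the groups overlap.

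Per length the order of the genes was different. In the deposited FPKM of control A6 animals EbpII was the highest of the 3 at 8712 ± 505, above Ebp at 4804 ± 259 and EbpIII at 3189 ± 58.9. In mutant A6 animals the deposited FPKM was 4692 ± 970.5 for EbpII, 2171 ± 472 for Ebp and 2463 ± 213 for EbpIII, and the ranges of Ebp and EbpIII overlapped. At P4, where Ebp and EbpII were at or near 0, EbpIII had 3513 ± 441 FPKM in controls and 3894 ± 340 FPKM in mutants.

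Before the adult stages EbpIII was called between the genotypes at P2. EbpIII stood at 81.3, 96.3 and 103 CPM in the control P2 libraries and at 59.1, 44.7 and 58.9 CPM in the mutant P2 libraries. The groups did not overlap, and EbpIII was 1.73-fold lower in the mutant (log2 -0.79 ± 0.133, edgeR adjusted p = 6.6e-05), at a stage where 8.79% of genes were called lower and 11.6% were called in either direction. This call held under every alternative that was run.

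EbpIII was not called between the genotypes at WPP, P1, P3 or P4. At P1 the control libraries ran from 66.2 to 79.3 CPM and the mutant libraries from 66.1 to 75.9 CPM. At P3 they ran from 262 to 333 CPM and from 297 to 326 CPM. The log2 differences were -0.45 ± 0.283 at WPP, -0.05 ± 0.131 at P1, 0.11 ± 0.129 at P3 and 0.17 ± 0.128 at P4 (edgeR adjusted p = 1, 0.927, 1 and 0.742). At these 4 stages 0.651%, 0.797%, 0.446% and 0.856% of all genes were called. The sign at P1 turned positive with DESeq2 size factors, at 0.021.

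From P1 to P2 EbpIII moved in opposite directions in controls and mutants. It rose 1.28-fold in controls (log2 0.35 ± 0.131, edgeR adjusted p = 0.0283) and fell 1.31-fold in mutants (log2 -0.39 ± 0.133, adjusted p = 0.0164), where 25.5% of genes were called lower. From P2 to P3 the log2 rise was 2.54 ± 0.138 in mutants and 1.63 ± 0.133 in controls, and the genotypes overlapped at P3. The mutant P1 to P2 fall was not called without mutant P1 replicate 2 (adjusted p = 0.0738) or mutant P2 replicate 2 (0.154). The control rise was not called without control P1 replicate 1 (0.0516) or 2 (0.121), nor without control P2 replicate 2 (0.0712) or 3 (0.119).

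Over the whole course the genotype effect on EbpIII differed between stages. The test of all 6 genotype by stage terms gave an edgeR adjusted p of 0.00361, where 12.4% of genes were called, and between 8.3e-04 and 0.0151 when each of the 42 libraries was left out in turn. For Ebp and EbpII this test was not called (edgeR adjusted p = 0.415 and 0.720). Over the 30 libraries from WPP to P4 Ebp had 55 counts and EbpII 0, so this test could show little for them. The mutant effect at P2 minus that at P1, a contrast added after the opposite steps were seen, was -0.74 ± 0.187 for EbpIII (edgeR adjusted p = 0.0192), where 2.61% of genes were called lower. It was not called without control P1 replicate 2 (0.0699), mutant P1 replicate 2 (0.0587), control P2 replicate 2 (0.0509) or 3 (0.0605), or mutant P2 replicate 2 (0.0985).

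No gene of the lists for the testis and for male dosage compensation was called at P2, where 11.6% of all genes were. These RNAs varied widely among libraries of the same group, so this test could show little for them. The summed level of roX1, roX2 and msl-2, which act in male dosage compensation, was 163 to 323 CPM in the control P2 libraries and 346 to 532 CPM in the mutant P2 libraries, which did not overlap. The summed level of the 15 testis genes was 1251 to 2611 CPM in the control and 1842 to 3073 CPM in the mutant P2 libraries, which overlapped. The part of the sex make-up in the EbpIII difference was not tested. Without mutant P1 replicate 1, the mutant P1 to P2 fall of EbpIII was -0.40 ± 0.144 on the log2 scale (edgeR adjusted p = 0.0231) and the P2 minus P1 effect was -0.75 ± 0.191 (0.0171).

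Among the other chemosensory protein genes, Phk-3 (pherokine 3) was also called lower in the mutant at P2. Phk-3 was 18.6 ± 2.80 CPM in mutant and 40.1 ± 6.31 CPM in control P2 animals (log2 -1.11 ± 0.202, edgeR adjusted p = 1.9e-04), and it was lower in the mutant at A6 as well, at 20.6 ± 5.87 against 32.4 ± 2.17 CPM (log2 -0.65 ± 0.201, adjusted p = 0.0297). The family of 4 genes, EbpIII included, thus had 2 called lower at P2 and 1 at A6, where 8.79% and 5.28% of all genes were. Its median log2 differences were -0.39 and -0.11 beside medians of 0.00 and 0.01 over all genes tested. The P2 median includes EbpIII itself and a10, which had 0 counts in control and 1 count in mutant P2 libraries. With DESeq2 size factors 2 were called lower at A6, EbpIII among them, where 913 of 13672 genes were.

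CG30172, a family member that lies 3027 bp from EbpIII, was not called at P2 or A6. CG30172 was at 30.9 ± 2.55 CPM in control and 30.9 ± 3.20 CPM in mutant P2 animals, and its group means had a correlation of 0.11 with those of EbpIII over the 14 groups. The fourth member, a10, a gene first known from the antenna, was at 0 until P1 and reached 30.2 ± 2.08 CPM in control A6 animals.

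Other genes known from the ejaculatory duct and bulb were also lower in the mutant at A6. Of the 7 on the list, 6 were measured, and 5 were called lower and none higher, where 5.28% and 6.14% of all genes were, with a median log2 difference of -1.33 beside 0.01 for all genes tested. Est-6, the esterase of the seminal fluid, was 317 ± 49.3 CPM in mutant and 1060.1 ± 80.9 CPM in control A6 animals (log2 -1.74 ± 0.277, edgeR adjusted p = 4.0e-05). Dup99B, a duct peptide related to sex peptide, was 176 ± 28.1 against 514 ± 32.2 CPM (log2 -1.54 ± 0.264, adjusted p = 4.9e-04). Elo68alpha, a male fatty acid elongase, Anp, the antibacterial peptide andropin, and Gld, glucose dehydrogenase, had log2 differences of -1.37, -1.28 and -1.02. The elongase gene bond was not called (120.1 ± 8.85 against 154 ± 1.78 CPM, edgeR adjusted p = 0.587). Its libraries did not overlap, though, at 113 to 130 CPM in mutant and 153 to 156 CPM in control A6 animals.

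Beside this list's median of -1.33, the log2 differences at A6 were -1.09 for Ebp, -0.90 for EbpII and -0.34 for EbpIII, and the difference between the genes and the list was not tested. The summed level of the list was 2025 to 2245 CPM in the control A6 libraries and 685 to 916 CPM in the mutant A6 libraries, with no overlap. At A1 no gene of the list was called, where 2.9% of all genes were. From A1 to A6 in mutants, where EbpII and EbpIII were called higher, none of the 6 was called higher and Anp, Elo68alpha and Dup99B were called lower, where 12.5% of all genes were. In controls Est-6, Gld and Dup99B were called higher, where 9.65% of all genes were, and none was called lower. At P2, where 8.79% of all genes were called lower, 2 of the 6 were called lower in the mutant. These were Est-6 (log2 -2.13 ± 0.497, edgeR adjusted p = 0.00313) and Gld (-0.90 ± 0.154, 7.2e-05). The summed level was 273.5 to 301 CPM in control and 154 to 196 CPM in mutant P2 libraries. Most of this sum was Gld, with group means of 263 CPM in control and 141 CPM in mutant P2 animals. Dup99B and Anp were at 0 in both P2 groups, so the sum does not stand for the list as a whole. The mutant effect at A6 minus that at A1 was called lower for Est-6 (-1.40 ± 0.384, edgeR adjusted p = 0.0402), Gld (-0.79 ± 0.221, 0.0449) and Dup99B (-1.60 ± 0.368, 0.0230), where 1.11% of genes were called lower.

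The accessory glands, which make most seminal fluid proteins and empty into the same duct, showed lower RNA at A6 too. Of 25 accessory gland genes 14 were called lower and none higher, where 5.28% and 6.14% of all genes were. Their median log2 difference was -0.84, beside 0.01 for all genes tested. Their summed level was 8894 to 9608 CPM in control and 3797 to 5476 CPM in mutant A6 libraries. Acp36DE, which acts in sperm storage, was 965 ± 192 against 2155 ± 123 CPM (log2 -1.16 ± 0.268, edgeR adjusted p = 0.00331). SP, the sex peptide, was 100.1 ± 20.7 against 170.2 ± 11.8 CPM (log2 -0.77 ± 0.220, adjusted p = 0.0332). Acp54A1 had the largest difference of the list, 18.7 ± 18.7 against 535 ± 109 CPM (log2 -4.84 ± 0.741, adjusted p = 8.2e-04).

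At A1 none of the 25 was called, as for Ebp and EbpII, where 2.9% of all genes were. From A1 to A6 in controls 22 of the 25 were called higher, beside all 3 ejaculatory bulb genes, where 9.65% of all genes were. In mutants 8 of the 25 were called higher and 2 lower, where 14.3% and 12.5% of all genes were. At P4, where Ebp had 20 and 10 counts and EbpII none, 8 of the 25 were called lower in the mutant, and the summed level was 208 to 560.1 CPM in control and 114.98 to 179 CPM in mutant P4 libraries, at a stage where 0.402% of all genes were called lower.

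No RNA of the testis or of male dosage compensation was called at A6, but this test could show little for them. The fit used 1 estimate of spread per gene over all groups, and these RNAs varied widely within groups before A1. Summed testis RNA, for example, ran from 1251 to 2611 CPM in the control P2 libraries. From P4 to A1 in mutants, none of the 15 testis genes was called with TMM scaling either, at a median log2 difference of 0.93. At A6, 5.28% of all genes were called lower and 6.14% higher. None of 15 testis genes was called, and their summed level was 4167 ± 60.2 CPM in control and 4061 ± 235 CPM in mutant A6 animals. None of the 3 dosage compensation genes was called. Their summed level was 723 to 876 CPM in the mutant and 525 to 590.1 CPM in the control A6 libraries, higher in the mutant without overlap. Of 15 genes on the female list, 8 were in the count table and 4 were tested, with none called at A6. The summed level of the 8 was 16.6 ± 0.754 CPM in control and 11.9 ± 1.38 CPM in mutant A6 animals.

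**Figure D5:**
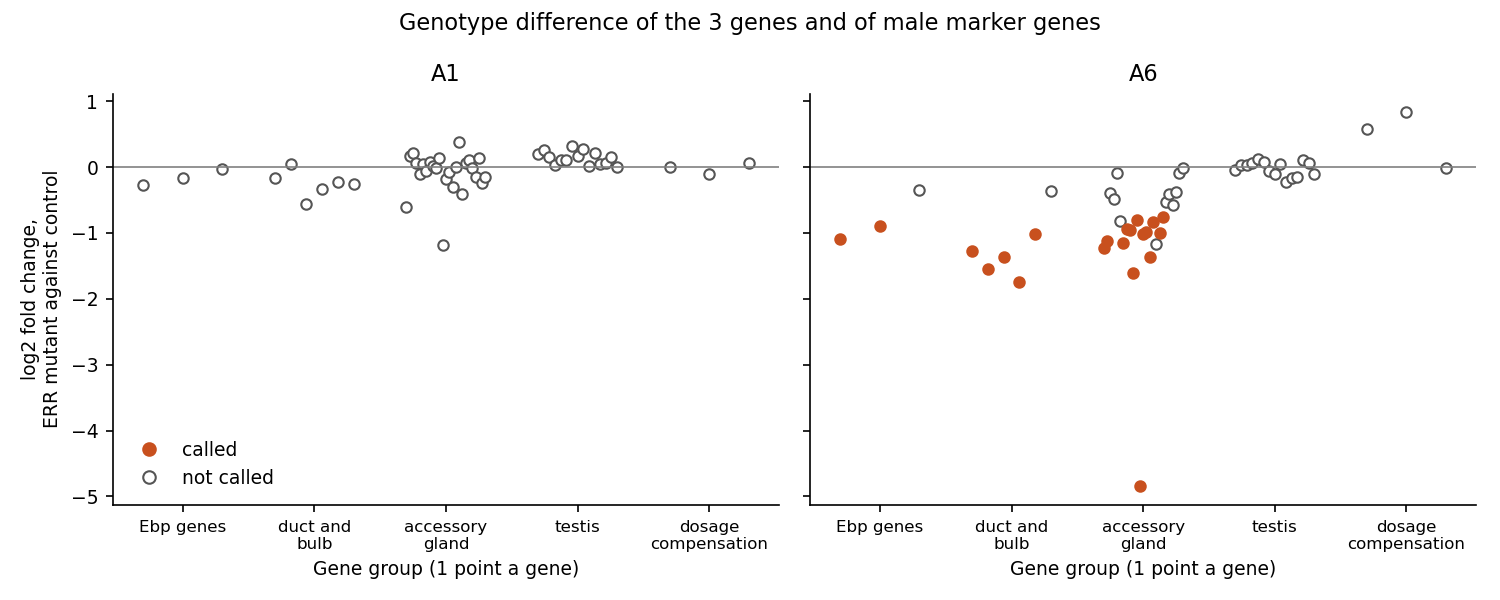
Log2 fold change of the ERR mutant against the control at A1 and A6, 1 point a gene, for the 3 ejaculatory bulb genes and for lists of ejaculatory duct and bulb, accessory gland, testis and dosage compensation genes. At A6, 5 of 6 duct and bulb genes, 14 of 25 accessory gland genes and no testis gene are called (filled points), and at A1 no gene shown is called. Of all genes tested, 5.28% are called lower and 6.14% higher at A6, and 2.9% are called at A1.

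Sfp60F, which encodes a seminal fluid protein, lies beside EbpII on the same strand, 872 bp away. Sfp60F, EbpII and Ebp together span 4471 bp, from 25172245 to 25176715 on 2R. Sfp60F had 927, 936 and 1096 CPM in the control A6 libraries and 490.3, 442 and 601 CPM in the mutant A6 libraries. The groups did not overlap, and the log2 difference was -0.95 ± 0.215 (edgeR adjusted p = 0.00687), so all 3 adjacent genes were called lower in the mutant at A6. At A1 Sfp60F had 423 CPM in the control and 340.0 CPM in the mutant group.

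The courses of the next genes outward varied. CG34038, 3712 bp from EbpII and beyond Sfp60F, had a correlation of -0.56 with EbpII. CG9380, 6912 bp beyond Ebp, was at 86.8 CPM in control WPP and 71.7 CPM in control A6 animals, and its group means had a correlation of 0.14 with those of Ebp over the 14 groups. HSPC300, 198 bp from EbpIII, was at 27.7 CPM in control WPP and 9.74 CPM in control A6 animals and had a correlation of -0.90 with EbpIII. Adk2, 294 bp on the other side, had a correlation of 0.60. Like EbpIII, Adk2 was highest at P4, at 166 CPM in control and 187 CPM in mutant animals. It was lower at A1, at 98.0 and 81.3 CPM.

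Likeness of course was ranked over 12360 genes by Pearson correlation of log2 CPM over the 14 group means. It is a description, because the groups share libraries of 1 series and any gene that is silent before A1 and abundant after it scores high. Both A6 groups are among the 14, so the genotype difference at A6 is part of the measure. The 5 genes most like Ebp were Sfp60F (0.998), Met75Cb (0.998), Acp24A4 (0.997), Sfp70A4 (0.997) and Spn75F (0.997), and EbpII ranked 7 at 0.996. As a description, their log2 differences at A6 ran from -2.29 for Met75Cb to -0.82 for Spn75F. Over the 42 single libraries, 2 of the 5 were among the 5 most like Ebp.

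The genes most like EbpII were Sfp87B (0.9998), Sfp24Bb (0.999), CG34212 (0.999), CG45080 (0.999) and Sfp60F (0.999), and Ebp ranked 28. Sfp87B was at 0.063 CPM in control P4, 730.3 CPM in control A1 and 2176 CPM in control A6 animals, and at 999.5 CPM in mutant A6 animals. The log2 differences of the 5 at A6 ran from -1.22 for Sfp24Bb to -0.25 for CG34212.

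EbpIII had correlations of 0.52 with Ebp and 0.49 with EbpII. The genes most like it were Mipp1 (0.987), an inositol polyphosphate phosphatase, CG3009 (0.979), cpx (0.978), the synaptic protein complexin, Hasp (0.974) and inaC (0.971), the protein kinase C of the eye. Their log2 differences at A6 ran from -0.27 for Mipp1 to 0.25 for cpx. Complexin, for example, went from 35.3 CPM in control WPP to 811 CPM in control P4 and was at 496 CPM in control A6 animals.

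Ranked over the 14 groups, Ebp and EbpII shared 1 order at the top. Control A6 stood first without overlap with mutant A6, and mutant A6, control A1 and mutant A1 followed, each overlapping the next. For EbpIII mutant P4, control P4 and control A6 led and overlapped their neighbours, control A6 did not overlap mutant A6, and mutant A6, control A1 and mutant A1 again overlapped in turn. The lowest EbpIII groups above WPP were control P2, control P1, mutant P1 and mutant P2, in that order, and only the P1 pair overlapped.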

How the data were processed

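RNA of whole flies was measured in 42 libraries, 14 groups of 3, grouped by genotype and time point label. The authors deposited expected counts per gene, which were whole numbers and were used as they stand, FPKM values, and a normalized signal. Per the submitters' processing notes the tools were STAR 2.7.0f, cutadapt 1.16, DESeq2 1.22.2 and RSEM 1.3.1, on build dm6. How strand was treated in counting is not given in the sources used here. For levels between genes the deposited FPKM was used. The deposited signal is each count over a factor that differs by gene as well as by library, and for the short gene EbpII this factor was 0.701 to 0.758 of the library's median factor in adults. It entered as an alternative scaling.

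Counts were fitted with edgeR 4.0.16 in R 4.3.3: TMM scaling, filterByExpr, 14 groups, robust quasi-likelihood, 28 residual degrees of freedom. SE follow from the fold change and the F statistic. Alternatives were DESeq2 1.42.0, other scalings, no filter, fewer libraries and leave-one-out. The procedure was tested on simulated data. Over the 42 replicate pairs the chi-square per gene was 2.77 to 67.5, so none was counted as 1 sample. Ratios within libraries used a pseudocount of 0.5. Likeness used a prior count of 2 and genes of at least 5 CPM in a group mean. Positions are from Ensembl BDGP6.54, in which 99.4% of identifiers were found. Named genes were the 3 members, ERR, the marker lists, the 5 genes most like each member and the neighbours. The members and lists were chosen with earlier results of these data known.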

Additional observations from a re-analysis of the deposited data

Results flagged for a closer look

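EbpIII, the chemosensory protein gene, was flagged because its genotype effect differed between stages. The edgeR test of the 6 genotype by stage terms gave an adjusted p of 0.00361, where 12.4% of all genes tested were called. The mutant effect at P2 minus that at P1, a contrast added after the data were seen, gave -0.74 ± 0.187 on the log2 scale with an edgeR adjusted p of 0.0192. In that contrast 2.61% of genes were called lower. Its edgeR adjusted p ran from 0.0107 to 0.0985 when single libraries were left out, so the call depended on single libraries. All 3 mutant libraries lay below all 3 control libraries at P2, and the groups overlapped at P1.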

How the results depend on the processing

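Over 48 results for the 3 genes, 659 alternatives were run. Of these, 617 kept direction and side of the threshold, 25 lost a call, 7 gained one and 10 turned the sign of a difference that was not called. The cause of these changes was not tested. No paired analysis was possible because the labels carry no replicate numbers. From WPP to P4, Ebp rests on 55 counts in all and EbpII on none, which limits detection there.

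Leaving out 1 library at a time gave these ranges of log2 differences. Mutant against control, Ebp ranged from -1.49 to 0.35 at P4 and from -1.26 to -0.997 at A6, EbpII from -0.29 to 0.10 at A1 and from -1.04 to -0.80 at A6, and EbpIII from -0.12 to 0.10 at A1. For Ebp the range was -1.29 to 0.0081 from WPP to P1 in controls, 1.99 to 3.58 from P3 to P4 in controls and 2.29 to 5.23 in mutants. For EbpII it was 0.61 to 0.89 from A1 to A6 in mutants and -1.01 to -0.61 for the A6 minus A1 effect. For EbpIII it was 0.28 to 0.44 from P1 to P2 in controls, -0.43 to -0.25 in mutants, 0.35 to 0.45 from A1 to A6 in mutants and -0.81 to -0.60 for the P2 minus P1 effect. The log2 ratio of EbpII to EbpIII at A1 ranged from -0.26 to 0.047, as mutant minus control.

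Among the other settings, EbpIII at P1 turned to 0.021 with DESeq2 size factors, 0.019 with the deposited factors, 0.012 with only the 6 libraries and 0.019 with DESeq2. EbpIII at A6 became a call at -0.40, -0.37, -0.35 and -0.40 with the same settings. EbpIII from A1 to A6 in mutants was 0.32 with DESeq2 size factors, and Ebp from P3 to P4 in mutants was 3.31 with DESeq2.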
